A study of Mus musculus with 4 samples.

Results

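The Ikaros family of zinc finger transcription factors was followed through CD4 T cells of the mouse mesenteric lymph node. The members were chosen by name from the columns of the count table: Ikzf1, which encodes Ikaros, Ikzf2, which encodes Helios, Ikzf3, which encodes Aiolos, and Ikzf4, which encodes Eos. They are 4 of the 13314 genes of the table, and earlier results of these data were known when they were chosen. All 4 had enough counts for each comparison of Treg-like, naive-like and all cells below. They were measured in 16948 cells that the authors had kept and placed in 10 numbered clusters, with a second set of 10 numbered subsets for part of the cells.

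CD4 T cells of male Foxp3GFP and Foxp3CNS1- mice were profiled by droplet-based single-cell RNA sequencing, which tags each captured RNA molecule with a unique molecular identifier (UMI) at its 3′ end. Both strains are labelled as sources of GFP-positive cells, and each library was a sorted mix of 50% GFP-positive and 50% GFP-negative cells from the pooled lymph nodes of 3 mice. Foxp3CNS1- mice lack CNS1, an enhancer inside the Foxp3 gene that contributes to the conversion of naive T cells into regulatory T (Treg) cells in peripheral tissue. All mice started germ-free, and the colonized groups had received the fecal microbiota of specific-pathogen-free (SPF) mice 9 days before the sort. The 4 groups were germ-free Foxp3GFP with 3979 cells, colonized Foxp3GFP with 4030, germ-free Foxp3CNS1- with 3533 and colonized Foxp3CNS1- with 5406. Each group has 1 library, so mice within a group cannot be told apart and no test was made between groups.

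The proteins of this family bind DNA through a group of zinc fingers near one end and pair with each other through further fingers at the other end. They recruit chromatin-modifying complexes and both silence and maintain genes during lymphocyte development. Ikaros is present in nearly all lymphocytes, Aiolos appears as they mature or become activated, and Helios and Eos are best known from Treg cells, where Helios stabilises the cell type and Eos works with Foxp3, the factor that defines Treg cells. Cereblon is a ubiquitin ligase adaptor through which thalidomide-like drugs degrade Ikaros and Aiolos in human cells.

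In the GENCODE M21 annotation of GRCm38, the same assembly as the mm10 build of the counts, Ikzf1 lies on the plus strand at chr11:11685003-11772926. Ikzf2 lies on the minus strand at chr1:69531214-69687245, Ikzf3 on the minus strand at chr11:98464902-98546031, and Ikzf4 on the minus strand at chr10:128630843-128645991. A search for the cysteine and histidine codons of C2H2-type zinc fingers in the longest coding transcript of each gene found 5 matches in each of the 4. The pattern had set spacings and took a histidine or a cysteine as the last of its zinc ligands. That ligand was a cysteine in finger 4 of each member and a histidine in the other matches. Fingers with other spacings are not counted, so 5 need not be the full number. The second finger is shown because it belongs to the DNA-binding group and makes the kinship of the family visible. The codons of the 2 cysteines and 2 histidines that hold the zinc ion are in capitals, and the strand shown is that of the gene.
Ikzf1, chr11:11754024-11754086, exon 6: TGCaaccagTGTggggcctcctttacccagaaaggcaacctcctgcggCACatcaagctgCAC
Ikzf2, chr1:69570581-69570643, exon 5: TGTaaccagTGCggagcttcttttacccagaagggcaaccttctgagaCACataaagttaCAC
Ikzf3, chr11:98488940-98489002, exon 5: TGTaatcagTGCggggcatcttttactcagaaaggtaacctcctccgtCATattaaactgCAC
Ikzf4, chr10:128640229-128640291, exon 5: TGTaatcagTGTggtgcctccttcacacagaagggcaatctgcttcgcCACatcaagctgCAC
Between pairs of members 48 to 53 of these 63 bases were identical, or 76.2% to 84.1%. The last 500 bases of all protein-coding transcripts of each gene were compared, since the assay tags the 3′ end. No run of 25 bases was shared between any 2 members, other than 3 such runs, which may overlap, between Ikzf2 and Ikzf4. The longest coding transcript of Ikzf4 has 133 bases after its stop codon, so these 500 bases include coding sequence. Where the reads fall was not examined. Among overlapping genes of the table, Gm28112 had 261 UMIs and lies within Ikzf2 on the same strand, Gm29114 had 19 UMIs and Gm26876 had 17, on the strands opposite Ikzf2 and Ikzf4. The strand setting of the counting is not given in the sources used.

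The median cell had 2399 UMIs in germ-free and 2832 in colonized Foxp3GFP, and 2286 in germ-free and 2764 in colonized Foxp3CNS1-. This order of the 4 libraries is kept wherever values follow each other. At least 99.8% of the cells of every library had a UMI of a T cell identity gene. A UMI of a B lineage gene was found in 61.6% to 66.4% of cells, mostly from Ighm. B lineage genes summed to 705 and 790 CPM in the germ-free libraries and to 1505 and 1252 in the colonized ones. Genes of CD8 T and NK cells had a UMI in 14.1% to 17.1% of cells and genes of myeloid and dendritic cells in 17.0% to 22.9%. Doublets were not removed here. A total of 314 cells carried 1 of 157 barcodes that occur in more than 1 library, and no ratio or call recomputed without these cells moved beyond its interval, SD or threshold.

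Levels are given as CPM, the UMIs of a gene per 1000000 UMIs of the cells named, with an exact 95% interval on ratios that covers counting error only. Levels of different genes are not compared, because UMI counts at the 3′ end depend on the transcript as well as on its abundance. From their marker genes, Treg-like is used for clusters 0, 3 and 6, naive-like for clusters 1 and 2, follicular helper (Tfh)-like for cluster 9 and effector-like for cluster 5. Cluster 8 was led by cell cycle genes, and clusters 4 and 7 were not named. The clusters were made from all genes, members included, so differences between clusters are descriptions and carry no test. Where values of different groups are said not to overlap, or all to lie above others, the share of all genes doing so is not given.

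Ikzf2 had the widest ratio between Treg-like and naive-like cells of the 4 members. Its 16630 UMIs lay in 6363 cells, and 64.2% of them were in the Treg-like clusters against 4.84% in the naive-like ones. In Treg-like cells it stood at 660 and 526 CPM in Foxp3GFP, germ-free and colonized, and at 608 and 575 CPM in Foxp3CNS1-. In naive-like cells it stood at 77.7, 45.2, 64.4 and 28.9 CPM in the same order. The 2 classes were far apart in every library, and the ratio was 8.50-fold, 11.6-fold, 9.45-fold and 19.9-fold. The library with the widest ratio, colonized Foxp3CNS1-, was the one with the lowest naive-like level rather than the highest Treg-like level.

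An Ikzf2 UMI was found in 60.3% of Treg-like and 8.09% of naive-like cells, whose median depths were 2388 and 2697 UMIs. With each cell thinned to 1500 UMIs the shares were 47.7% and 5.64%. The naive-like share serves as a low reference, since free RNA in the droplets gives some UMIs to cells that do not express a gene. It is not a measure of free RNA alone, because Ikzf2 was higher in the naive-like cells with a Foxp3 UMI, as given below. Foxp3 stood at 159, 177, 146 and 161 CPM in Treg-like and at 30.3, 25.6, 30.2 and 13.7 CPM in naive-like cells, of which 5.54% had a Foxp3 UMI. All 13 Treg markers of the list were more than 1.5-fold higher in the Treg-like class, where 16.9% of 7433 genes were. The class was named from such markers, so this count describes the naming and gives it no support. Of the tested markers of other lists, 6 of 6 Tfh, 6 of 7 effector and 3 of 3 B lineage ones were higher too. Of the naive markers 0 of 10 were, and of the T cell identity markers 1 of 8.

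Among single clusters, cluster 3 was highest for Ikzf2, with 1179 CPM in germ-free and 786 in colonized Foxp3GFP, and 1034 and 920 in Foxp3CNS1-. Its mean of 980 ± 167 (SD over the 4 libraries) lay beyond the spread of the next in order. This cluster was led by Epcam, Serpina3g, Tnfrsf9 and Itgae, of which the last is an integrin chain of cells that lodge in epithelium. Clusters 6, 0 and 9 followed at 486 ± 80, 478 ± 50 and 474 ± 183 CPM and did not differ beyond their spread. Clusters 5, 4, 7 and 8 came next at 337 to 270 CPM, again without a gap beyond the spread. The last 2 steps, down to 74.6 CPM in cluster 2 and 34.8 CPM in cluster 1, were both larger than the spread.

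**Figure D1:**
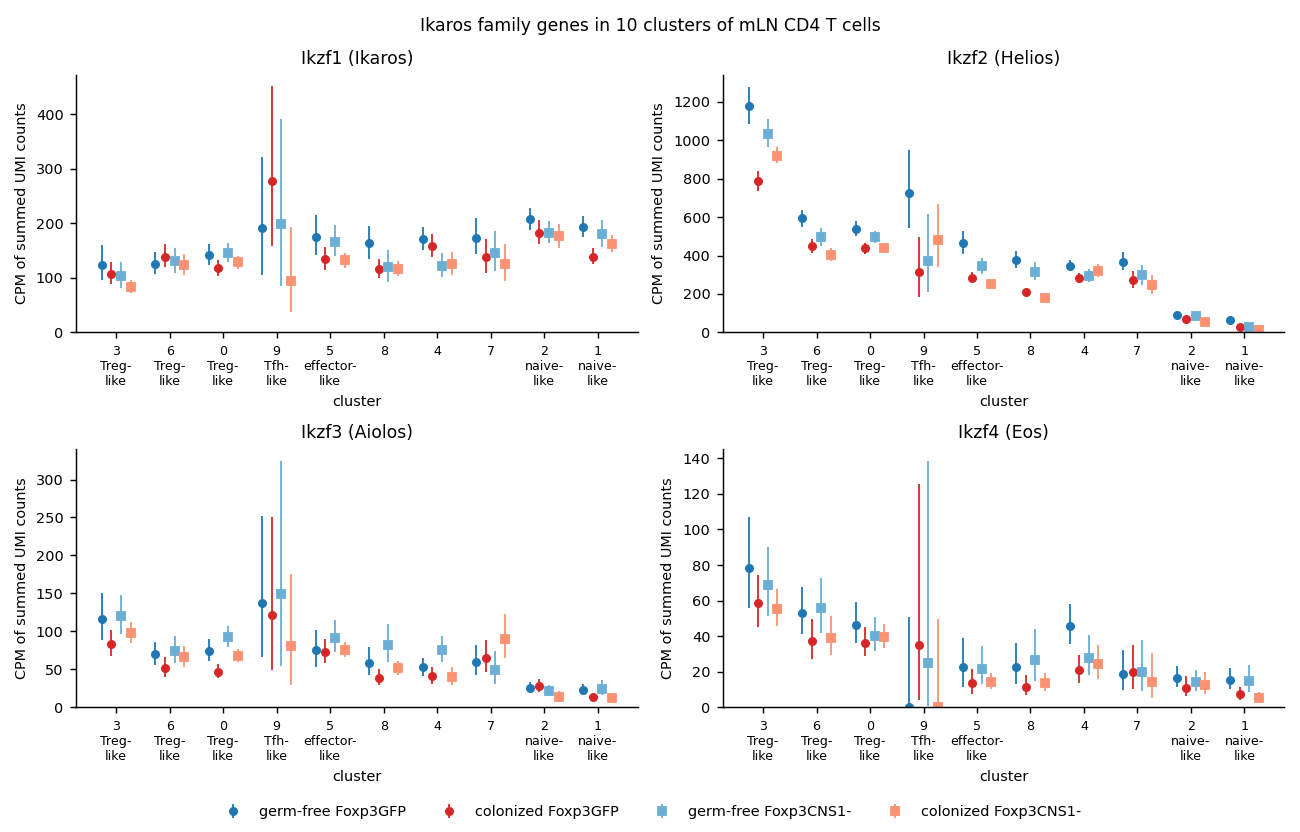
Level of each member (CPM, 1 panel per gene, each with its own axis from 0) in the 10 clusters, with 1 point per library and exact 95% counting intervals as bars. Ikzf2 and Ikzf4 peak in cluster 3, and both have their lowest means in clusters 1 and 2. Single points of Ikzf4 are at 0 in cluster 9, for germ-free Foxp3GFP and colonized Foxp3CNS1-. Ikzf3 is high in clusters 9 and 3, and Ikzf1 has its lowest mean in cluster 3.

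Ikzf4 followed a similar order at the top. In Treg-like cells the 4 libraries had 53.9, 41.8, 50.4 and 44.1 CPM. In naive-like cells they had 16.0, 8.44, 14.2 and 7.84 CPM, so every Treg-like value was above every naive-like value. Cluster 3 led at 65.2 ± 10.4 CPM, beyond the spread of the next, followed by clusters 6 and 0 at 46.2 and 40.6 CPM. The Tfh-like cluster 9 held 3 Ikzf4 UMIs in its 84 cells, which is 12.2 CPM, and both the germ-free Foxp3GFP and the colonized Foxp3CNS1- library were at 0, where 3 counts would be 41.2 and 40.2 CPM. By its mean, cluster 9 was among the first 4 clusters for Ikzf2 and among the last 3 for Ikzf4, an order that so few counts do not settle.

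Ikzf3 had its highest mean in cluster 9, at 122 ± 30 CPM, and cluster 3 followed at 104 ± 17, within that spread. The effector-like cluster 5 came next at 78.5 ± 8.7 CPM, ahead of cluster 0 at 70.4. The naive-like clusters 2 and 1 were lowest at 22.0 and 17.9 CPM. Over the Treg-like class Ikzf3 stood at 79.2, 57.2, 93.2 and 76.2 CPM, and over the naive-like class at 24.2, 18.1, 22.4 and 12.7. The groups did not overlap.

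Ikzf1 went the other way, with the narrowest ratio of the 4. It stood at 133, 121, 133 and 114 CPM in the Treg-like cells of the 4 libraries and at 201, 155, 182 and 168 CPM in the naive-like cells. Every naive-like value was above every Treg-like value. A UMI was found in 33.4% of all cells, and after thinning in 16.6% of Treg-like and 23.1% of naive-like cells. Cluster 3 was lowest at 105 ± 17 CPM, and that was the only step in the order of Ikzf1 larger than the spread. Cluster 9 at 191 ± 76, cluster 2 at 187 ± 14 and cluster 1 at 169 ± 23 were highest.

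Set side by side as log2 ratios of Treg-like to naive-like cells, the means over the 4 libraries were 3.55 ± 0.55 for Ikzf2, 2.09 ± 0.36 for Ikzf4, 2.0 ± 0.42 for Ikzf3 and -0.49 ± 0.10 for Ikzf1 (SD). Thus 3 of the 4 members were more than 1.5-fold higher in Treg-like cells, each in 4 of 4 libraries, where 16.9% of 7433 genes were. None was lower by that fold, where 2.39% of genes were. The median gene was at 0.26 on this scale. With library sizes from the trimmed mean of M values (TMM) the ratios dropped by 0.25 to 0.29, and Ikzf1 then stood at -0.76, past 1.5-fold. Ikzf5, which encodes Pegasus and is the remaining member of the wider family, stood at 0.09 ± 0.26.

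The second numbering splits the activated cells more finely, and the subset s4 stood out for Ikzf3. It holds 884 cells, of which 70.9% belong to cluster 0 and 24.2% to the effector-like cluster 5, and its leading genes include Ccr2, a receptor for chemokines, Gzmb, which encodes a cytotoxic protease, and the inhibitory receptor Lag3. Ikzf3 stood there at 155 CPM in germ-free and 138 in colonized Foxp3GFP, and at 144 and 111 in Foxp3CNS1-. The subset also had 726 CPM of Ikzf2 over all its cells and 41.2 CPM of Ikzf4. Subset s0, with 86.9% of its cells from cluster 3, had the highest Ikzf2 of the subsets with over 17 cells, at 1108, 781, 950 and 928 CPM. The smallest, s9, has 17 cells led by Gzma and Gzmb, none of them from a germ-free library, and 94.1% of them had an Ikzf2 UMI.

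Subset s5 carried Ikzf1 and Ikzf3 with little Ikzf4. It holds 632 cells led by Sostdc1 and Pdcd1, with 3 Tfh markers among its 10 leading genes, and it draws 270 cells from cluster 0, 256 from cluster 5 and 83 from cluster 9. Its Ikzf1 level was 205, 160, 164 and 166 CPM, the highest mean of the subsets at 174 ± 21. Ikzf3 stood at 93.1, 65.9, 134 and 95.7 CPM. Ikzf4 had a mean of 11.2 ± 3.6 CPM over the libraries, close to s7, which was at 10.1 ± 2.0. A share of 5.22% of its cells had a Foxp3 UMI.

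Ikzf2 in subset s5 differed widely between the libraries. It stood at 558 and 182 CPM in Foxp3GFP, germ-free and colonized, and at 299.9 and 171 CPM in Foxp3CNS1-. Both colonized libraries were below both germ-free ones. The log2 ratio of colonized to germ-free was -1.62 (interval -1.97 to -1.27) in Foxp3GFP and -0.81 (-1.14 to -0.47) in Foxp3CNS1-. A decrease of more than 1.5-fold was found for 11.5% of genes in this subset in Foxp3GFP and for 9.65% in Foxp3CNS1-. Under the alternatives run for this subset the ratios ranged from -2.19 to -1.50 and from -1.52 to -0.52. In Foxp3CNS1- the ratio was under 1.5-fold with thinned cells, at -0.52, and by the mean of the CPM of single cells, at -0.55.

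The order of the libraries was the same in the cells of s5 that lie in cluster 0, with 579, 161, 305 and 186 CPM of Ikzf2, apart from a swap of the 2 colonized libraries. In its cells from cluster 5 the values were 408, 167, 273 and 125 CPM. In its 83 cells from cluster 9 they were 727, 329, 372 and 483 CPM, and there colonized Foxp3CNS1- was above germ-free Foxp3CNS1-. The whole of cluster 9 has 84 cells, of which 63.1% had an Ikzf2 UMI, or 44.6% after thinning, while 3 of the 84 had a Foxp3 UMI.

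**Figure D2:**
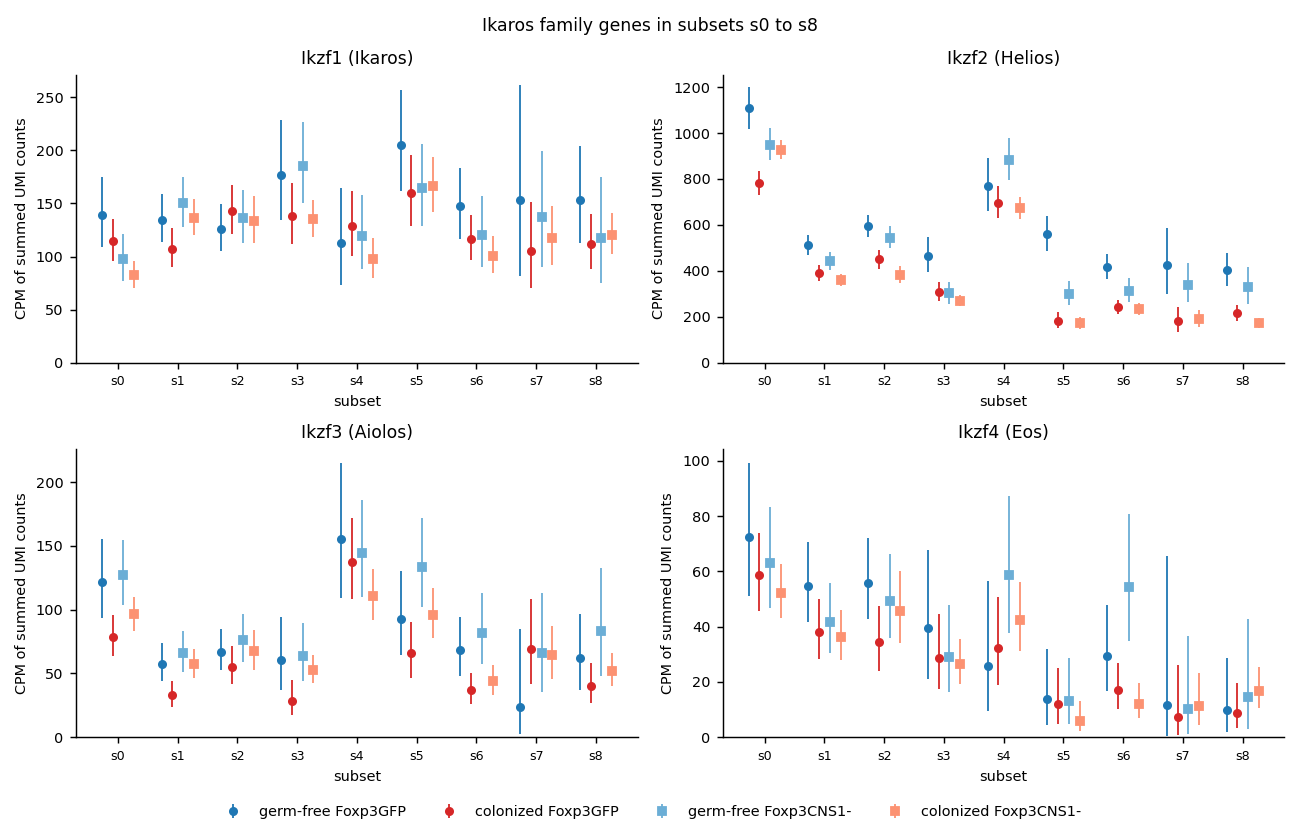
Level of each member (CPM, 1 panel per gene, each with its own axis from 0) in subsets s0 to s8, with 1 point per library and exact 95% counting intervals as bars, leaving out the 17 cells of s9. Among those drawn, Ikzf2 is highest in s0, Ikzf3 is highest in s4, and s5 combines the highest mean of Ikzf1 with one of the lowest levels of Ikzf4.

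Cells with a UMI of Foxp3 were then compared with the remaining cells of the same library. They numbered 636 and 844 in Foxp3GFP and 564 and 1074 in Foxp3CNS1- mice, germ-free first, or 18.4% of all cells. Since 50% of the sorted cells were GFP-positive, a cell without a Foxp3 UMI may still express Foxp3. Counts were summed per library and side and tested with edgeR's quasi-likelihood test with the library as a block, so that the 4 libraries serve as replicates of the within-library difference. The p-values set each difference against a spread between these 4 libraries, which come from 4 different groups. The test estimates that spread in part from all genes together. A small p-value therefore does not rest on the 4 differences of the gene alone.

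Ikzf2 stood at 592, 546, 636 and 638 CPM in cells with a Foxp3 UMI and at 296, 205, 283 and 241 CPM in cells without. Every value with was above every value without. The log2 difference was 1.20 (SE 0.051, adjusted p = 7.75e-16, higher in 4 of 4 libraries), and by p Ikzf2 was gene 10 of the 10285 tested. A UMI of Ikzf2 was found in 68.5% of cells with and 30.6% of cells without a Foxp3 UMI, at median depths of 2721 and 2552 UMIs. After thinning the shares were 51.9% and 22.3%.

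Ikzf4 stood at 53.9, 39.0, 66.1 and 42.3 CPM with and at 27.4, 17.4, 23.4 and 20.3 CPM without a Foxp3 UMI. The groups did not overlap, and the log2 difference was 1.11 (SE 0.098, adjusted p = 1.73e-09 by edgeR, higher in 4 of 4 libraries). Ikzf3 stood at 70.5, 61.2, 82.7 and 81.6 CPM with and at 48.2, 38.1, 62.6 and 49.6 CPM without, and here the groups overlapped between libraries although each library went the same way. Its log2 difference was 0.55 (SE 0.076, adjusted p = 3.12e-06 by edgeR). Ikzf1 stood at 124, 111, 118 and 98.2 CPM with and at 181, 145, 157 and 139 CPM without. It fell by 0.52 on the log2 scale (SE 0.052, adjusted p = 2.01e-08 by edgeR, lower in 4 of 4 libraries).

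So 3 of the 4 members were higher in cells with a Foxp3 UMI, against 10.5% of the 10285 genes, and 1 was lower, against 7.92%. Ikzf5 did not pass the test, at -0.18 and an adjusted p of 0.45 by edgeR. The call for Ikzf3 did not hold within single classes of cells. It was 0.15 (adjusted p = 0.437 by edgeR) within Treg-like cells, 0.098 (adjusted p = 0.964) within naive-like cells and 0.48 (adjusted p = 0.128) within cluster 5. In cells with no UMI of a B, CD8, NK or myeloid marker it was 0.15 (adjusted p = 0.875). Ikzf1 was at -0.45 within cluster 5 (adjusted p = 0.0885 by edgeR).

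Ikzf2 and Ikzf4 kept their calls within every class run. Within Treg-like cells the log2 differences were 0.37 for Ikzf2 (adjusted p = 7.62e-10 by edgeR) and 0.41 for Ikzf4 (adjusted p = 0.0144). Within naive-like cells they were 2.61 (adjusted p = 5.20e-31) and 1.52 (adjusted p = 0.00149), and within cluster 5 they were 1.49 (adjusted p = 8.11e-16) and 1.90 (adjusted p = 3.67e-05). In levels, the cells of cluster 1 with a Foxp3 UMI had a mean of 221 ± 67 CPM of Ikzf2 over the 4 libraries, against 25.2 ± 15.6 without. Whether those cells are Treg cells placed in a naive-like cluster was not tested.

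**Figure D3:**
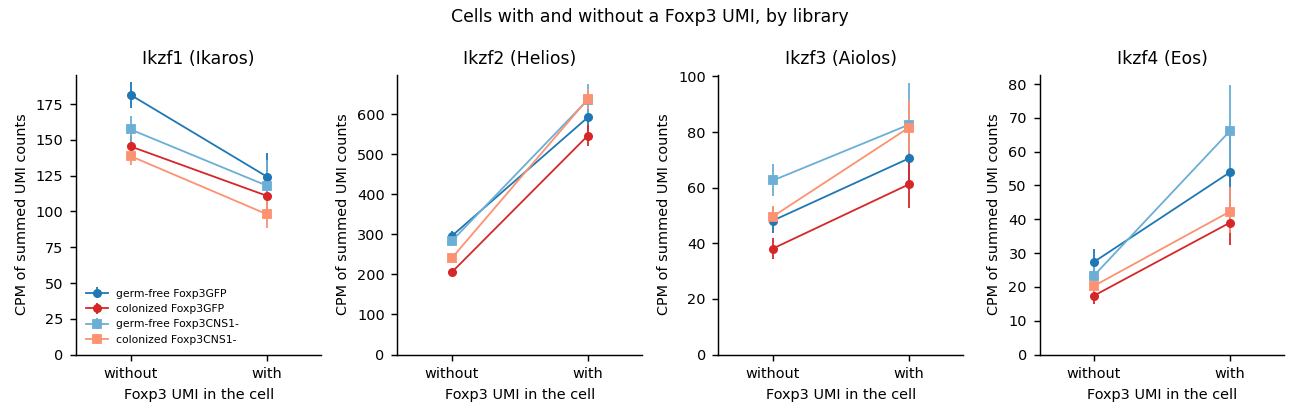
Level of each member (CPM, 1 panel per gene, each with its own axis) in cells with and without a Foxp3 UMI, with a line joining the 2 values of each library and exact 95% counting intervals as bars. The 4 lines rise for Ikzf2, Ikzf3 and Ikzf4 and fall for Ikzf1.

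Read from the other side, the share of cells with a Foxp3 UMI rose with the number of Ikzf2 UMIs in the cell and then levelled off. In cells thinned to 1500 UMIs it was 7.49% (exact binomial interval 7.01% to 7.99%) at 0 Ikzf2 UMIs, 19.7% at 1, 23.4% at 2 and 23.0% (20.3% to 25.9%) at 3 or more. For Ikzf1 the share went from 12.1% at 0 to 8.82% at 1 and 5.90% at 2. For Ikzf3 it was 10.9% at 0 and 16.1% at 1. Cells are not replicates, so these shares describe the pooled libraries.

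**Figure D4:**
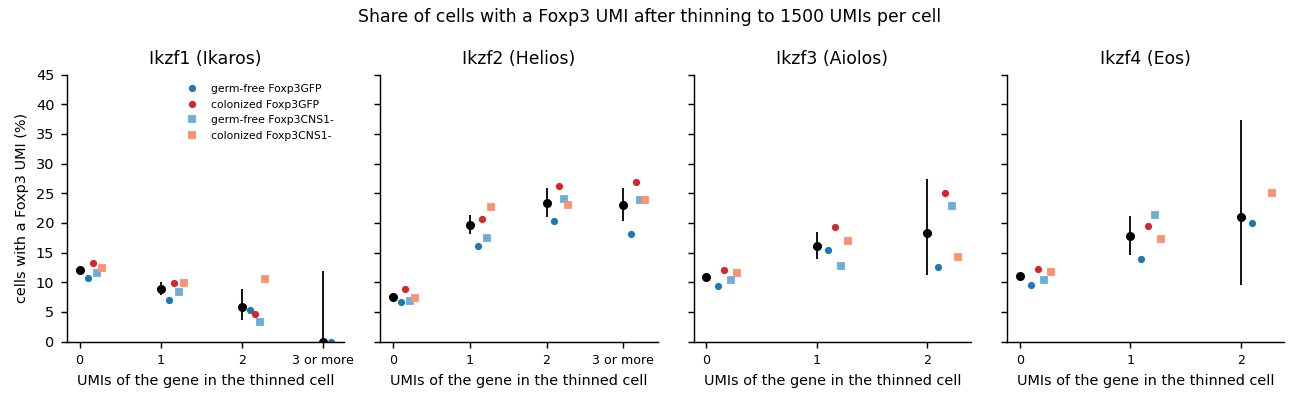
Percent of cells with a Foxp3 UMI against the number of UMIs of each member in the cell, after thinning to 1500 UMIs, with exact 95% binomial intervals as bars. The share climbs from 7.49% to about 23.4% with Ikzf2 and declines from 12.1% with Ikzf1.

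The same thinned cells show which members were found together. Ikzf2 and Ikzf4 had a UMI in the same cell in 320 of 15663 cells, where independent detection gives 163. Ikzf2 and Ikzf3 were found together in 481 cells against 317, and Ikzf1 and Ikzf2 in 635 against 861. The gap between found and independent was smaller within Treg-like cells. There Ikzf2 and Ikzf3 were together in 312 cells against 290, Ikzf2 and Ikzf4 in 225 against 172 and Ikzf1 and Ikzf2 in 392 against 470. Within naive-like cells, on fewer cells, Ikzf2 and Ikzf4 were together in 20 against 4.57. Ikzf2 and Ikzf3 were together there in 15 against 8.23 and Ikzf1 and Ikzf2 in 52 against 67.9.

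Genes that act with the family were compared in the same way. The lists were chosen with earlier results of these data known, and their values are descriptions beside the test over all genes, whose median log2 difference was 0.00099 and of which 10.5% rose and 7.92% fell. Of 16 tested genes of the NuRD, CtBP and Sin3 corepressor complexes 1 rose and none fell, with a list median of 0.0069. That gene was Chd3, a NuRD remodelling ATPase, at 0.29 (SE 0.040, adjusted p = 3.84e-06 by edgeR). Of 5 tested genes of the cereblon ubiquitin ligase none passed, and Crbn itself was at 0.052 (adjusted p = 0.684 by edgeR).

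Transcription factors known from Treg cells moved in both directions. Of 27 tested, 10 rose and 8 fell, with a list median of 0.094, beside the 10.5% and 7.92% of all genes tested. Prdm1, which encodes Blimp-1 of effector Treg cells, rose by 1.18 (adjusted p = 4.63e-07 by edgeR), Gata1 by 1.12, Maf by 0.54 and Batf by 0.53. Tcf7 and Lef1, a related pair of factors of naive T cells, fell by 1.74 and 1.14, Satb1 fell by 0.74 and Klf2, which controls exit from lymph nodes, fell by 0.49. Of 12 tested Treg markers 12 rose, Il2ra by 1.69, and of 10 naive markers 9 fell and 1 rose. Of 11 tested effector markers 6 rose and 2 fell. Of 8 T cell identity markers 4 fell, with Thy1 at -0.55 and Cd4 at -0.45, and 1 rose, Cd3e at 0.13. Of 10 Tfh markers 1 rose and 7 fell, Il4 by 2.15 and Sostdc1 by 1.84, and of 10 proliferation markers none passed. Of 5 tested B lineage markers Ighm and Cd79b rose, by 0.96 and 0.91, each in 4 of 4 libraries. Jchain and Igkc fell in the fit, but not in every library. Jchain was higher with a Foxp3 UMI in 1 of 4 libraries and Igkc in 2 of 4. Of 6 tested CD8 and NK markers 2 rose and 2 fell. The part of these cells in the values of the members was not tested beyond the alternatives given.

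The genes whose pattern was most like each member were taken over 36 combinations of cluster and library of at least 50 cells, among 6652 genes, by Pearson's r of log2(CPM + 10). The combinations share libraries and depth, the clusters were made from these genes, and r is given as a description. For Ikzf2 they were Ctla4, Prkca, Izumo1r and Il2rb at 0.95 and Nt5e at 0.94. For Ikzf4 they were Nrip1 at 0.94, Tgfbr1 at 0.92, and Cd81 and Arrdc4 at 0.91. For Ikzf3 they were Ndfip1 at 0.94, Maf at 0.93, Bcl2a1b and Cd44 at 0.92 and Unc119 at 0.91. For Ikzf1 they were Ramp1 at 0.84, S1pr1, Tdrp and Tmsb10 at 0.79 and Dapl1 at 0.78. With Foxp3 the r was 0.91 for Ikzf2, 0.86 for Ikzf4, 0.79 for Ikzf3 and -0.61 for Ikzf1.

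Between colonized and germ-free mice no member differed by more than 1.5-fold over all Treg-like cells, where 3.18% of genes in Foxp3GFP and 2.34% in Foxp3CNS1- were higher and 4.73% and 5.86% lower by that fold. Ikzf2 moved from 660 to 526 CPM in Foxp3GFP, a log2 ratio of -0.33 (interval -0.41 to -0.24), and from 608 to 575 CPM in Foxp3CNS1-, a log2 ratio of -0.081 (-0.16 to -0.0049). The latter turned to 0.013 with TMM, to 0.016 with thinned cells and to 0.0041 in cells with a Foxp3 UMI. Ikzf3 was at -0.47 (-0.72 to -0.21) in Foxp3GFP and -0.29 (-0.49 to -0.087) in Foxp3CNS1-. Ikzf4 was at -0.37 (-0.67 to -0.061) and -0.19 (-0.46 to 0.083), and Ikzf1 at -0.14 (-0.32 to 0.050) and -0.22 (-0.38 to -0.048). In Treg-like cells with no UMI of another lineage's marker, Ikzf2, Ikzf3 and Ikzf4 were past 1.5-fold in Foxp3GFP, at -0.79, -0.67 and -0.85. Ikzf1 turned there to 0.21 in Foxp3GFP and 0.085 in Foxp3CNS1-. That filter removes 69.3% to 74.9% of a library, and the number of Treg-like cells it leaves is not given. Over cells with a Foxp3 UMI, Ikzf4 in Foxp3CNS1- was past it at -0.64. Cluster 0 was the largest Treg-like cluster of each library, while cluster 3, where Ikzf2 is highest, held 251 of 1239, 435 of 1518, 363 of 1453 and 797 of 2414 in the 4 libraries. With equal weight to each cluster the 2 ratios of Ikzf2 were -0.47 and -0.20.

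**Figure D5:**
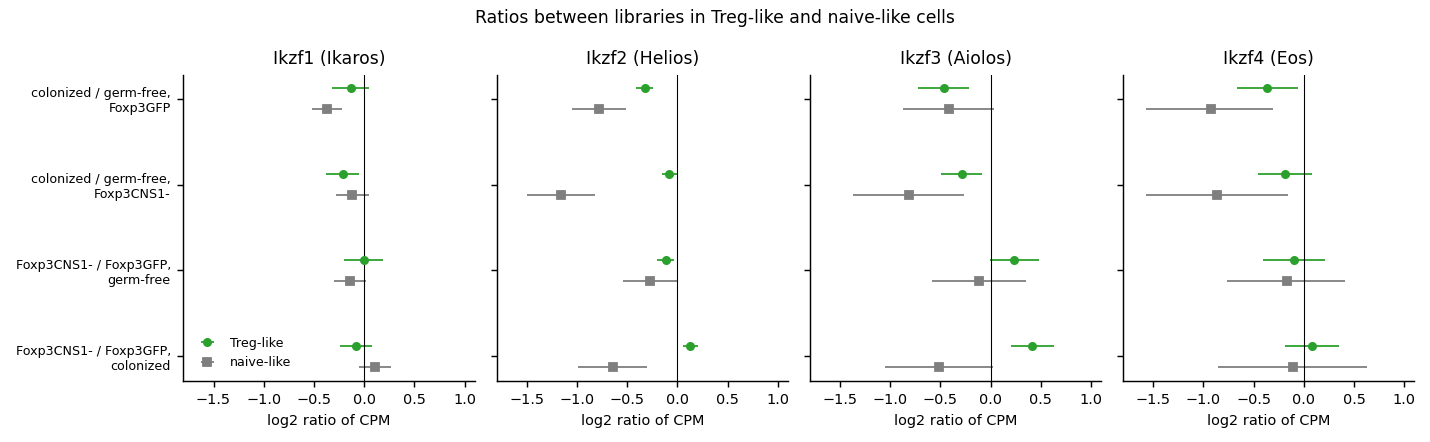
Log2 ratios between libraries for each member in Treg-like and naive-like cells, for colonized against germ-free and for Foxp3CNS1- against Foxp3GFP, with exact 95% counting intervals as bars. The ratios of Ikzf2 and Ikzf4 for colonization lie further below 0 in naive-like than in Treg-like cells.

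Within cluster 3 the decrease of Ikzf2 in Foxp3GFP was larger, at -0.58 (interval -0.74 to -0.43), against -0.17 (-0.29 to -0.046) in Foxp3CNS1-. Without cells with a UMI of another lineage's marker these were -1.08 and 0.053. B lineage genes, which that filter uses, summed to 5204 CPM in cluster 3, against 941 and 990 CPM in clusters 0 and 6. How many cells of cluster 3 the filter left is not given, so the 2 filtered ratios may rest on few cells. In this cluster 7.80% and 6.79% of genes were lower by more than 1.5-fold in the 2 strains. Whether the ratios differ between the strains was not tested, because each rests on 1 library per group.

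Larger differences lay outside the Treg-like class. In naive-like cells Ikzf2 was at -0.78 (interval -1.05 to -0.51) in Foxp3GFP and -1.16 (-1.50 to -0.82) in Foxp3CNS1-, and Ikzf4 at -0.92 (-1.57 to -0.30) and -0.86 (-1.57 to -0.16). Ikzf3 was at -0.41 (-0.87 to 0.037) and -0.81 (-1.37 to -0.27), and Ikzf1 at -0.37 (-0.52 to -0.22) and -0.12 (-0.28 to 0.046). The mix of the 2 naive-like clusters differed between the libraries. Cluster 2, where Ikzf2 is higher than in cluster 1, held 806 of 1495 naive-like cells in germ-free and 530 of 1356 in colonized Foxp3GFP, and 714 of 1108 and 541 of 1383 in Foxp3CNS1-. Within cluster 1 the ratios of Ikzf2 were -1.04 and -1.02, within cluster 2 they were -0.39 and -0.68, and with equal weight to each cluster the one in Foxp3CNS1- was -0.76. Over the whole class 2 of 4 members in Foxp3GFP and 3 of 4 in Foxp3CNS1- were lower by more than 1.5-fold, where 4.33% and 5.77% of genes were. These levels are low: Ikzf4 rests on 65 and 34 UMIs in Foxp3GFP and on 42 and 32 in Foxp3CNS1-, where its ratio was under 1.5-fold with thinned cells, at -0.55, and without cells with a UMI of another lineage's marker, at -0.31. Over this class Foxp3 went from 30.3 to 25.6 CPM in Foxp3GFP, at -0.25 (interval -0.64 to 0.14). It went from 30.2 to 13.7 CPM in Foxp3CNS1-, at -1.14 (-1.65 to -0.64). In Foxp3GFP the ratio of Foxp3 was -0.87 (-1.50 to -0.25) in cluster 1 and 0.40 (-0.11 to 0.92) in cluster 2. In cluster 2 of Foxp3CNS1- it was -0.77 (-1.44 to -0.14). The parts of Foxp3 and of free RNA in the values of the members were not tested.

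In cluster 8, the cycling cells, Ikzf2 stood at 378 CPM in germ-free and 208 in colonized Foxp3GFP, and at 315 and 181 in Foxp3CNS1-. The ratios were -0.86 (interval -1.10 to -0.62) and -0.80 (-1.06 to -0.54), and 5.21% and 5.36% of genes were lower by more than 1.5-fold. Without cells with a UMI of another lineage's marker they were -2.10 and -2.31, and by the mean of the CPM of single cells the one in Foxp3CNS1- was -0.57, under 1.5-fold. Among its cells without a Foxp3 UMI the values were 379, 115, 290 and 137 CPM, with both colonized libraries below both germ-free ones. Among its cells with a Foxp3 UMI they were 374, 464, 443 and 417 CPM, with no such order. The latter cells are few and held 34, 87, 17 and 75 Foxp3 UMIs.

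Cluster 5 showed such a split in Foxp3CNS1- only. Its cells without a Foxp3 UMI had 376, 188, 297 and 179 CPM of Ikzf2, again lower in both colonized libraries. Its cells with a Foxp3 UMI had 968, 569, 591 and 597 CPM, lower with colonization in Foxp3GFP but not in Foxp3CNS1-. Those cells held 43, 121, 78 and 217 Foxp3 UMIs. For the whole cluster the ratios were -0.71 (interval -0.95 to -0.47) and -0.44 (-0.64 to -0.24), with 6.06% and 6.65% of genes lower by more than 1.5-fold. Without cells with a UMI of another lineage's marker they were -1.26 and -0.66. Which cells make up a cluster may differ between libraries, and the part of such a shift in these values was not tested.

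By genotype, no member passed 1.5-fold over all Treg-like cells, where 3.51% of genes were higher and 1.77% lower by that fold in germ-free mice, and 2.12% and 1.77% in colonized mice. Without cells with a UMI of another lineage's marker, Ikzf2 and Ikzf4 passed it in germ-free mice, at -0.63 and -0.84. Ikzf3 was higher in Foxp3CNS1- than in Foxp3GFP, with a log2 ratio of 0.23 (interval -0.0053 to 0.48) without and 0.41 (0.20 to 0.63) with colonization. Over all cells the ratios were 0.34 (0.17 to 0.51) and 0.37 (0.22 to 0.52), and both Foxp3CNS1- libraries stood above both Foxp3GFP libraries, at 66.2 and 56.2 against 52.3 and 43.5 CPM. Treg-like cells, where Ikzf3 is higher, made up 41.1% and 44.7% of the Foxp3CNS1- libraries and 31.1% and 37.7% of the Foxp3GFP ones, and the part of this in the ratio over all cells was not tested. In naive-like cells Ikzf3 was at -0.11 (-0.58 to 0.35) and -0.51 (-1.05 to 0.023). Ikzf2 in Treg-like cells was at -0.12 (-0.20 to -0.030) without and 0.13 (0.054 to 0.20) with colonization. In cells with a Foxp3 UMI both of its ratios were above 0, at 0.10 and 0.22, and in Treg-like cells with one they were 0.18 (0.029 to 0.32) and 0.26 (0.15 to 0.37). In subset s5 Ikzf2 was lower in germ-free Foxp3CNS1- than in germ-free Foxp3GFP, at -0.90 (-1.22 to -0.58), where 3.81% of genes were lower by more than 1.5-fold, and the ratio in colonized mice was -0.088 (-0.45 to 0.28).

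Over all Treg-like cells Ikzf4 was by genotype at -0.098 (interval -0.41 to 0.21) without and 0.077 (-0.19 to 0.35) with colonization, and Ikzf1 at -0.0056 (-0.20 to 0.19) and -0.086 (-0.24 to 0.074). These 4 intervals include 0, and each allows a difference of up to the bound given. Among single subsets Ikzf1 went both ways: in subset s0 it was at -0.52 (-1.0 to -0.033) without and -0.48 (-0.81 to -0.14) with colonization, and in subset s1 at 0.16 (-0.17 to 0.49) and 0.34 (0.041 to 0.65). In naive-like cells of colonized mice Ikzf2 was lower in Foxp3CNS1-, at -0.65 (-0.99 to -0.30), where 3.43% of genes were lower by more than 1.5-fold. That ratio was under 1.5-fold with thinned cells, at -0.46, and with equal weight to both clusters, at -0.56.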

How the data were processed

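The authors deposited UMI counts per gene and cell. The submitters' processing notes name Cell Ranger, Scanpy 1.5.1 and the mm10 build; further filters and any removal of doublets are not given in the sources used. The table has 17478 cells and 13314 genes, all values whole; 227 cells without an entry in the authors' cell table and 303 marked as removed were left out, and 3 columns of the cell table were not used. The members and the gene lists were chosen with earlier results of these data known. Counts were summed per library and cell set and scaled to CPM. Ratios carry exact 95% Clopper-Pearson intervals and need 50 UMIs over both libraries, and calls a fold over 1.5. Cells with and without a Foxp3 UMI were compared with edgeR 4.0.16 (quasi-likelihood test, TMM, filter on low counts, library as block, Benjamini-Hochberg adjustment over all genes, threshold 0.05, R 4.3.3), DESeq2 1.42.0 being an alternative. Thinning drew 1500 UMIs per cell and left out shallower cells. Named genes were all members, the 5 genes most like each among those with 500 UMIs, and from each of 12 lists up to 4 per direction with the smallest p. Some genes that this rule names are not reported here. On simulated data the edgeR fit recovered 99.5% of 200 genes changed 2-fold over 10255 genes and called 10 unchanged genes; ratios of genes raised 2-fold came out at a median of 1.99 and 95.3% of intervals over 9985 genes held the true value. Python 3.11.15, NumPy 2.4.6, SciPy 1.17.1 and pandas 2.3.3 were used. Gene models and sequences came from GENCODE M21. Intervals cover counting error only, and with 1 library per group the comparisons between groups have no replicate.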

Additional observations from a re-analysis of the deposited data

Results flagged for a closer look

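Ikzf2 went in opposite directions by genotype in germ-free and colonized mice, with both counting intervals off 0, in 3 overlapping sets of cells. In Treg-like cells the log2 ratio of Foxp3CNS1- to Foxp3GFP was 0.13 (interval 0.054 to 0.20) in colonized and -0.12 (-0.20 to -0.030) in germ-free mice. In cluster 3 it was 0.23 (0.11 to 0.34) and -0.19 (-0.35 to -0.031), and in subset s0, most of which is cluster 3, it was 0.25 (0.14 to 0.36) and -0.22 (-0.38 to -0.064). In Treg-like cells with a Foxp3 UMI both ratios were above 0, at 0.26 (0.15 to 0.37) in colonized and 0.18 (0.029 to 0.32) in germ-free mice. The difference between the 2 ratios was not tested, since each group has 1 library. The 303 cells that the authors removed, which enter no comparison, also held UMIs of the family. Summed over the libraries they had 134 CPM of Ikzf1, 133 CPM of Ikzf2 and 98.1 CPM of Ikzf3, all above the level that 3 counts would give.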

How the results depend on the processing

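No ratio past 1.5-fold changed its sign. For cells with against without a Foxp3 UMI 51 values of the 4 members stayed on their side of the threshold and 5 did not: Ikzf3 within Treg-like cells (0.15), without cells that had a UMI of another lineage's marker (0.15), within naive-like cells (0.098) and within cluster 5 (0.48), and Ikzf1 within cluster 5 (-0.45). Leaving out each library in turn gave -0.54 to -0.49 for Ikzf1, 1.12 to 1.28 for Ikzf2, 0.48 to 0.61 for Ikzf3 and 1.01 to 1.17 for Ikzf4, with adjusted p of at most 2.47e-05, 3.49e-09, 0.000552 and 4.33e-06 by edgeR. Without the library block the 4 members kept their calls. The number of genes called higher and lower was 1079 and 815 at first, 571 and 504 with thinned cells, 528 and 391 with DESeq2, 993 and 1118 with no filter on low counts, which alone put more genes lower than higher, 282 and 198 in Treg-like cells, 229 and 176 without cells with another lineage's marker, 431 and 280 without the library block, 138 and 101 in naive-like cells and 182 and 122 in cluster 5. Leaving out each library gave 702 to 1059 higher and 489 to 832 lower, the smallest counts without colonized Foxp3GFP. The within-class runs test fewer genes.

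In Treg-like cells 138 ratios between libraries stayed within their counting interval and 22 did not. The number that did not was 16 over all cells, 7 in naive-like cells, 5, 3 and 6 in clusters 3, 5 and 8, and 4, 3 and 6 in subsets s0, s4 and s5. Dropping cells with a UMI of another lineage's marker, which removes 69.3% to 74.9% of a library, gave for colonized against germ-free 0.21 (Ikzf1), -0.79 (Ikzf2) and -0.85 (Ikzf4) in Foxp3GFP and 0.085 (Ikzf1) and -0.53 (Ikzf3) in Foxp3CNS1-. By genotype it gave 0.23 (Ikzf1), -0.63 (Ikzf2) and -0.84 (Ikzf4) in germ-free and 0.11 (Ikzf1) and -0.31 (Ikzf4) in colonized mice. The share of cells that this filter removes within a class, cluster or subset is not given. Cells with a Foxp3 UMI in place of Treg-like clusters gave for colonization -0.12 (Ikzf2) and -0.20 (Ikzf3) in Foxp3GFP and 0.0041 (Ikzf2), -0.018 (Ikzf3) and -0.64 (Ikzf4) in Foxp3CNS1-, and by genotype 0.10 (Ikzf2) and 0.29 (Ikzf4) in germ-free and 0.22 (Ikzf2) in colonized mice. Equal weight to each cluster gave -0.47 and -0.20 for Ikzf2, and Ikzf2 in Foxp3CNS1- was 0.016 with thinned cells and 0.013 with TMM. For Treg-like against naive-like cells Ikzf1 was -0.72 without ribosomal, mitochondrial and immunoglobulin genes, -0.76 with TMM and -0.35 without cells with another lineage's marker, where Ikzf3 was 1.32. The cause of these shifts was not tested. The alternatives without B markers other than Ighm, without shared barcodes, within naive-like cells, within cluster 5 and those of single clusters and subsets were chosen after seeing the data. No paired analysis between groups was possible because each group has 1 library. Depth limits Ikzf4 most, with 1385 UMIs in all.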
